A study of Mus musculus with 4 samples.

Results

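The results concern pancreatic beta cells of homozygous Pax4 knock-in mice (Pax4 HH) set against those of wild-type mice (Pax4 WT), both 12 weeks old and kept on standard chow (SCD). The knock-in allele carries a missense change of the transcription factor Pax4 that corresponds to a human coding variant, and per the study's methods the animals were male littermates on a C57BL6/N background. Islets of several mice were pooled for each library, dissociated with trypsin and profiled by droplet 3-prime single-cell RNA sequencing, in which each captured transcript is counted by a unique molecular identifier (UMI). Each genotype had 1 library on SCD, and a further library of each genotype came from mice kept on a high-fat diet (HFD) for 4 weeks and taken at 16 weeks of age. With 1 library a side, genotype and library cannot be told apart, no test was made and no difference below has a replicate check.

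A cell was kept when mitochondrial transcripts made up under 10% of its UMIs, its UMIs lay between 3000 and 50000 and its detected genes between 2000 and 5000. It was called a beta cell when Ins1 and Ins2, the insulin genes, together took at least 5% of its UMIs and Gcg, Sst and Ppy, which encode glucagon, somatostatin and pancreatic polypeptide, each took under 1%. These conditions were met by 4046 cells of the SCD libraries, 2056 in WT and 1990 in HH, out of 6335 kept cells, 9788 SCD barcodes and 22218 barcodes in the series. UMIs were summed over the beta cells of each library and scaled to counts per 1000000 UMIs (CPM). The 1400 genes described were selected on a mean of at least 50 CPM over both sums, out of 32285 genes in the files, and all values below are log2 ratios of HH over WT of these sums unless said otherwise. The same contrast chose the genes named, so their ratios are a description and not a finding that was tested. Ube2r2 lay just inside the expression limit with a mean of 50.03 CPM, and Upb1 just outside.

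Beta cells make, store and release insulin, and they keep this identity through a small set of transcription factors, among them Pdx1, Mafa, Nkx6-1 and Neurod1. Pax4 directs endocrine precursors towards the beta cell fate during development and is expressed at low levels afterwards. Because proinsulin passes through the endoplasmic reticulum (ER) in large amounts, beta cells rely on ER chaperones, on the translocon that brings new proteins into the ER, and on the signals, such as cyclic AMP, that adjust secretion. Metallothioneins are small proteins that bind zinc and other metals, and zinc is stored with insulin in the secretory granule.

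The libraries were close in depth. The beta cell sums held 55268291 UMIs in WT and 52952481 in HH, with medians of 26402.5 and 26190 UMIs per cell. Insulin transcripts took 54.4% of the WT sum and 55.9% of the HH sum, and mitochondrial transcripts 5.44% and 5.23%. The median number of genes detected per beta cell was 3889 in WT and 3720.5 in HH, and after thinning each cell to 3000 UMIs it was 825 and 795. All 8 beta cell markers of the list used, from Iapp and Pdx1 to Slc2a2 and Ucn3, were detected in both sums. Few kept cells lay at the edge of the beta cell rule, with 60 WT and 16 HH cells holding 2% to 5% insulin transcripts and 11 and 6 holding 5% to 10%. The SCD libraries shared 6 barcodes, of which 1 was a beta cell in both. All intervals are exact 95% intervals, Poisson for a CPM value, conditional binomial for a ratio and Clopper-Pearson for a share, and cover counting error only.

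The beta cells of the genotypes differed little for most genes. The median log2 ratio over the 1400 genes was -0.04, 938 genes (67%) had ratios below 0, and 90% of the genes had an absolute ratio of 0.192 or less. A ratio of 0.25 or more, about 18.9% higher in HH, was reached by 14 genes, or 1%, and a ratio of -0.25 or less by 37 genes, or 2.64%. Ratios past 0.5 in size were found for 2 higher genes, Pyy and Ppy, and 8 lower genes, and Mt2 was the sole gene past 1. Which side held more genes depended on the scaling. When Ins1, Ins2, Iapp and the mitochondrial transcripts were taken out of the denominator of CPM, named the alternative denominator from here on, all ratios were 0.0558 higher, 613 genes (43.8%) had ratios below 0 and the counts were 34 higher and 21 lower, and with median-of-ratios scaling they were 25 and 23. The medians of 6 lists near -0.04, those of immediate early genes, Atf4 and Ddit3 targets, ribosomal proteins, glucose sensing, exocytosis and the cell cycle, turned to between 0.01 and 0.02 with the first of these scalings, and that of antioxidant enzymes from -0.02 to 0.03. For this reason each group of genes is read against the median of all genes, a distance that no scaling alters. Over the same 1400 genes that median was -0.05 in beta cells on HFD, and on SCD 0.005 in alpha cells and -0.01 in delta cells.

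**Figure D1:**
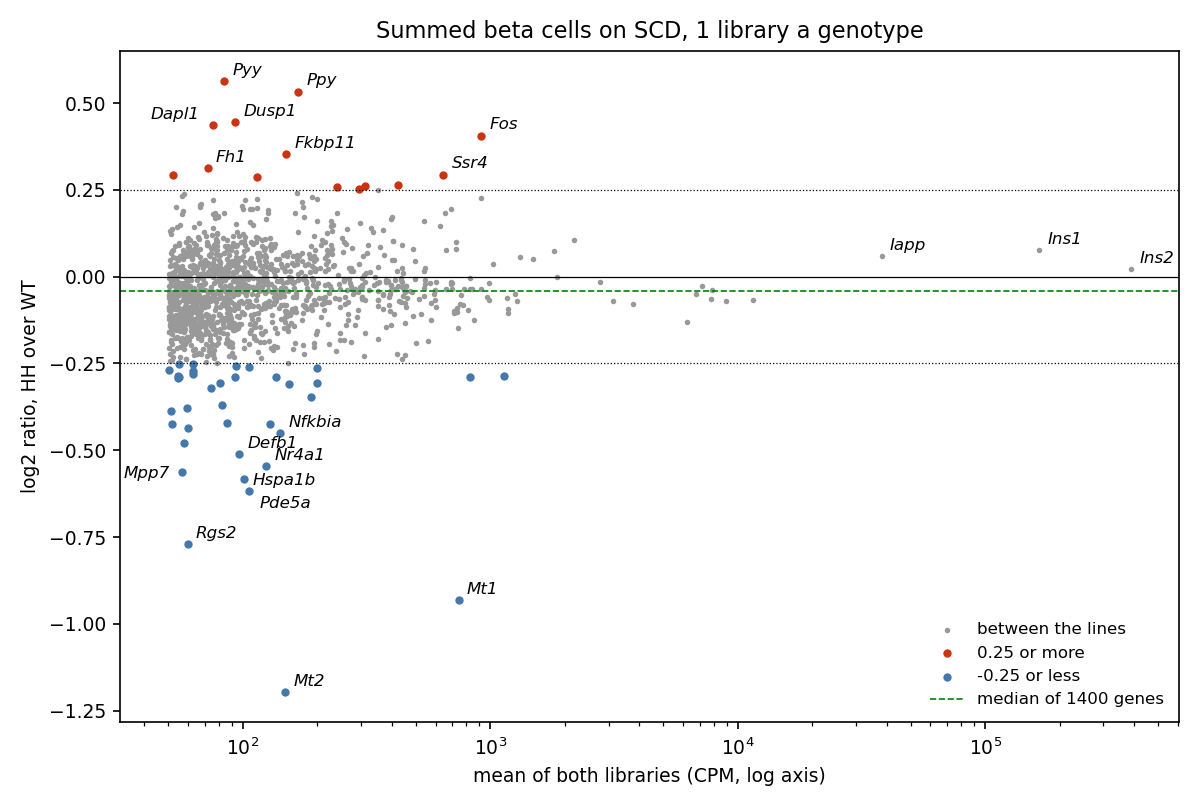
Each point is 1 of the 1400 genes, placed by its mean level in both beta cell sums (CPM, log axis) and its log2 ratio of HH over WT. Mt2 (-1.20) and Mt1 (-0.93) lie at the bottom, followed by Rgs2 (-0.77), Pyy (0.56) and Ppy (0.53) at the top, and the insulin genes at the right close to 0.

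The metallothionein genes Mt1 and Mt2 had the lowest ratios of all. Mt2 stood at 206 CPM in WT (interval 202 to 209.7) and 89.9 in HH (87.3 to 92.5), a log2 ratio of -1.20 (-1.24 to -1.15). Mt1 stood at 976 CPM in WT (967 to 984) and 512 in HH (506 to 518), a ratio of -0.93 (-0.95 to -0.91). The difference was spread over the cells rather than held by a few. The median beta cell held 1083 CPM of Mt1 and Mt2 together in WT and 501 CPM in HH, the lower quartiles were 509 and 205 CPM, and 19.3% of HH beta cells lay above the WT median. After thinning to 3000 UMIs per cell, 41.4% of WT beta cells (39.3% to 43.6%) and 23.5% of HH beta cells (21.6% to 25.4%) had a UMI of Mt2, against 87.6% and 68.2% before thinning. Endothelial cells of the same libraries, which hold little metallothionein RNA, had a UMI of Mt2 in 6.25% of 112 cells in WT and in none of 87 cells in HH after thinning, from median depths of 6071.5 and 5768 UMIs.

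**Figure D2:**
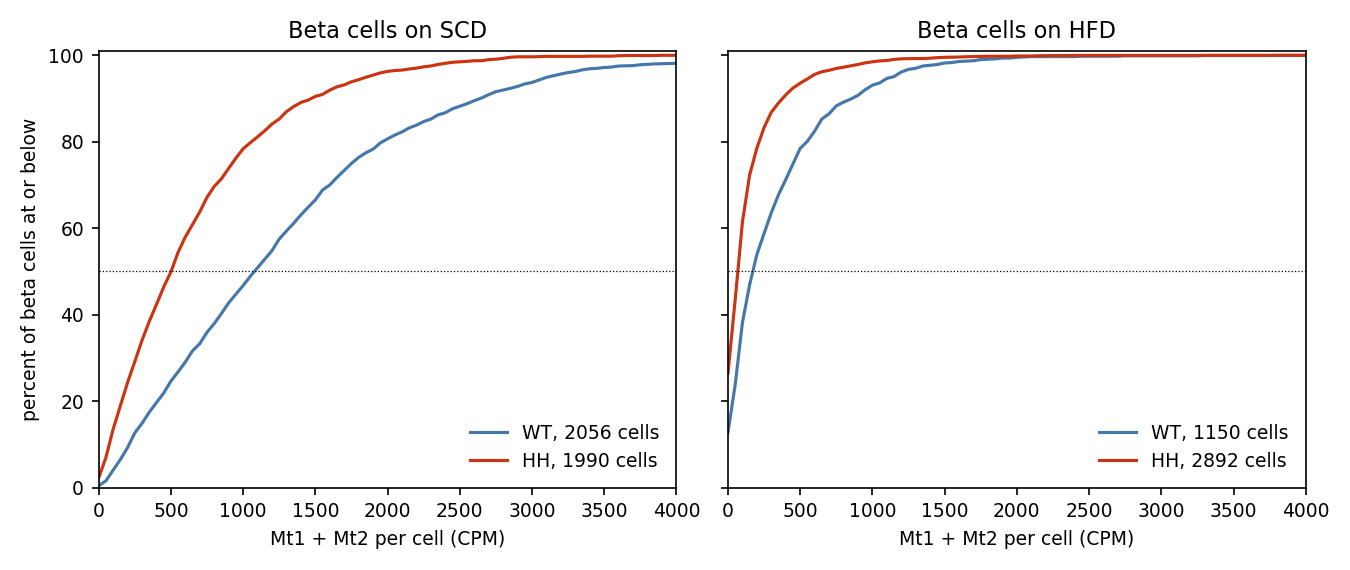
The lines give the percent of beta cells (y axis) whose Mt1 and Mt2 transcripts together lie at or below a level (x axis, CPM of the cell) in each library, on SCD at the left and on HFD at the right. The HH line lies above the WT line in both panels, with medians of 501 against 1083 CPM on SCD and 65.8 against 173 CPM on HFD.

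Mt1 and Mt2 are neighbours on chromosome 8, and their promoters are shown because the pair had the largest difference. Both sequences are the 250 bases before the RefSeq start on build GRCm38.p6, plus strand, at chr8:94178839-94179088 for Mt1 and chr8:94172368-94172617 for Mt2. Capitals mark the core of the metal response element, the site through which the zinc-sensing factor Mtf1 acts, searched as TGCACNC or TGCGCNC on both strands.
Mt1: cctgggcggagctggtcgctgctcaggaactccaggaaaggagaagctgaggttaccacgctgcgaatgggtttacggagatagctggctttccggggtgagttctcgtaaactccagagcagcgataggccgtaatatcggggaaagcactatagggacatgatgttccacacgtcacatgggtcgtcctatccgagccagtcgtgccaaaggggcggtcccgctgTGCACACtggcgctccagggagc
Mt2: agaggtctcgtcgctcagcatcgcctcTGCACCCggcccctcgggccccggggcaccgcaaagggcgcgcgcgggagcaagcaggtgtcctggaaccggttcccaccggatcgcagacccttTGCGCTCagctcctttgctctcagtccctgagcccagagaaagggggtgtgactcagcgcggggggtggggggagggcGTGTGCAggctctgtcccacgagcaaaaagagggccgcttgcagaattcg
Over a window that also took 50 bases past the start, Mt1 had 3 matches and Mt2 had 4. Other starts of the gene were not looked at. The remaining pair of Mt1 matches lay just past the RefSeq start used, at chr8:94179091-94179115, in the stretch below.
Mt1, past the start: TGCACTCcgcccgaaaagTGCGCTC
The same window held at least 1 match in 25.7% of all 32851 RefSeq promoters and 3 or more in 1.97%, and at least 1 was found in 43.3% of the 1104 genes above the expression limit that had a promoter in the table. A match describes the letters and not a site in use.

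Of the 22 genes listed for metallothioneins and zinc, 4 reached the expression limit and 18, Mtf1 among them, lay below it. None of the 4 was past 0.25 and 2, Mt1 and Mt2, were past -0.25, against 1% and 2.64% of all genes. The median of the 4 was -0.58 against -0.04 for all genes. Slc30a8, the transporter that loads zinc into insulin granules, stood at 486 CPM in WT and 415 in HH, a ratio of -0.23 (-0.25 to -0.20), and Slc39a7, a zinc exporter of the ER, was level at 82.1 and 82.0 CPM. The lower metallothionein level was also seen outside beta cells. In alpha cells Mt1 had a ratio of -0.58 (-0.63 to -0.52) and in delta cells of -0.89 (-1.01 to -0.77), and in endothelial cells it counted 96 UMIs in WT and 32 in HH, a ratio of -1.15 (-1.77 to -0.56). In the same endothelial cells Ins1 and Ins2 had ratios of -0.73 and -0.70, and the part of beta cell RNA in the Mt1 ratio there was not tested. On HFD, in libraries that share no sample with SCD, Mt1 had a ratio of -1.14 (-1.18 to -1.09) and Mt2 of -1.47 (-1.58 to -1.36) in beta cells, from lower levels of 239 and 48.2 CPM in WT.

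Rgs2 and Pde5a, which act in G protein and cyclic nucleotide signalling, had the next lowest ratios after the metallothioneins. Of 47 genes listed for such signalling, 12 reached the expression limit and all 12 had ratios below 0, or 10 with the alternative denominator of CPM, against 67% and 43.8% of all genes. None was past 0.25 and 3 were past -0.25, against 1% and 2.64% of all genes. The median was -0.12 against -0.04 for all genes. Rgs2, which speeds up the shut-off of G proteins, stood at 75.4 CPM in WT (73.1 to 77.7) and 44.2 in HH (42.4 to 46.0), a ratio of -0.77 (-0.84 to -0.70). Pde5a, a phosphodiesterase that degrades cyclic GMP, stood at 128 CPM in WT and 83.2 in HH, a ratio of -0.62 (-0.67 to -0.56). Pde10a, which degrades cyclic AMP and cyclic GMP, stood at 92.4 and 71.5 CPM, a ratio of -0.37 (-0.43 to -0.31). After thinning to 3000 UMIs, Pde5a was found in 32.6% of WT and 23.1% of HH beta cells, against 92.0% and 83.2% before. The difference was -9.57 percentage points, and -15.6 with thinning to 10000 UMIs. It was found after thinning in 2.68% and 2.30% of endothelial cells and in 1.98% and 1.09% of alpha cells. The receptor Glp1r, through which incretin hormones raise cyclic AMP, had a smaller ratio of -0.18 at 263 and 232 CPM, the catalytic kinase subunit Prkacb one of -0.20 and the stimulatory G protein subunit Gnas one of -0.08. Adra2a, the adrenergic receptor that restrains secretion, and Gnao1 were at the upper end of the list with -0.04. On HFD Pde5a (-0.43), Pde10a (-0.35) and Glp1r (-0.49) were again lower in HH, whereas Rgs2 was higher, at 139 CPM in WT and 257 in HH.

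Immediate early genes, which are switched on within minutes of a stimulus, did not move as a block. Of 48 listed genes, 19 reached the limit, with 2 (10.5%) past 0.25 and 3 (15.8%) past -0.25, against 1% and 2.64% of all genes. With the alternative denominator the counts were 3 and 3, against 2.43% and 1.5% of all genes. Their median of -0.04 was that of all genes. Fos, a subunit of the AP-1 transcription factor, stood at 787 CPM in WT (779.8 to 795) and 1043 in HH (1034 to 1052), a ratio of 0.41 (0.39 to 0.42). Dusp1, a phosphatase that turns off MAP kinases, stood at 78.9 CPM in WT and 107 in HH, a ratio of 0.45 (0.39 to 0.50). Jun, the AP-1 partner of Fos, lay between the limits at 645 and 737 CPM with a ratio of 0.19. On the lower side, Nr4a1, an orphan nuclear receptor, stood at 147 CPM in WT (144 to 150.1) and 100.5 in HH (97.9 to 103), a ratio of -0.55 (-0.60 to -0.50). The phosphatase Dusp5 had a ratio of -0.38 and the transcription factor Cebpb one of -0.32, while Fosb, another subunit of AP-1 at 897 and 824 CPM, had one of -0.12 and Egr1 one of -0.08. Fos and Nr4a1 thus differed in opposite directions in the same cells, and both differences were broad. In HH, 71.2% of beta cells lay above the WT median for Fos and 33.4% above the WT median for Nr4a1.

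The promoters of Fos and Nr4a1 are shown because these genes of the same class diverged. They are the 250 bases before the RefSeq start on GRCm38.p6, plus strand, at chr12:85473640-85473889 and chr15:101266596-101266845. Capitals mark TGACG, the core of the cyclic AMP response element, searched on both strands, so that CGTCA is the same core read on the other strand.
Fos: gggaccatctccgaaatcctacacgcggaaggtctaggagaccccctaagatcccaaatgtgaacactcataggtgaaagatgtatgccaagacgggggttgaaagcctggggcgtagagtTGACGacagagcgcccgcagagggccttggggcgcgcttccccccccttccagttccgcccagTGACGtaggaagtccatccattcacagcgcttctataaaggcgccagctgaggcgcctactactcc
Nr4a1: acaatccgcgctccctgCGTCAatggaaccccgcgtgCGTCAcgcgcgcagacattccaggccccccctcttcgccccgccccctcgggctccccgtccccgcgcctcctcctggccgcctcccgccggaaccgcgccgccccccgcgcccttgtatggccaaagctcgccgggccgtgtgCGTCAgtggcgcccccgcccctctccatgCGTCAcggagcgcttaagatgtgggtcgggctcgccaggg
Fos held 2 matches and Nr4a1 held 4. The core was found in 12 of the 16 immediate early genes with a promoter in the table, in 45.9% of the 1104 genes above the expression limit that had one, and in 20.8% of all promoters, so that it marks both genes that were higher in HH and genes that were lower.

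Heat shock chaperones, which refold damaged cytosolic proteins, held 3 of the lower genes. Of 40 listed genes, 24 reached the limit, with a median of -0.11 against -0.04 for all genes. None was past 0.25 and 3 were past -0.25, against 1% and 2.64% of all genes. With the alternative denominator of CPM 2 were past -0.25, without Dnajb1, against 1.5% of all genes. Ratios were below 0 for 23 of the 24, or 20 with the alternative denominator, against 67% and 43.8% of all genes. Hspa1b, an inducible Hsp70, stood at 121 CPM in WT (118 to 124) and 80.9 in HH (78.5 to 83.3), a ratio of -0.58 (-0.64 to -0.53). Its near-identical copy Hspa1a stood at 219 and 177 CPM, a ratio of -0.31. A read common to both copies cannot be assigned to either, so their separate values are uncertain. Dnajb1, the Hsp40 that works with Hsp70, stood at 216 and 180.2 CPM, a ratio of -0.26. The constitutive members were closer to the median of all genes, with Hspa8 at -0.09, Hsp90ab1 at -0.10 and the chaperonin subunit Cct8 at 0.01. In alpha cells Hspa1b, Hspa1a and Dnajb1 had ratios of 0.16, 0.09 and 0.35, and in delta cells of 0.09, 0.19 and 0.47. On HFD the 3 genes were lower in HH beta cells, with ratios of -1.75, -1.73 and -1.55.

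The Hspa1b promoter is shown for its heat shock element, marked in capitals and searched as GAANNTTC, which reads alike on both strands. The sequence is the 250 bases before the RefSeq start on GRCm38.p6, minus strand, at chr17:34959239-34959488.
Hspa1b: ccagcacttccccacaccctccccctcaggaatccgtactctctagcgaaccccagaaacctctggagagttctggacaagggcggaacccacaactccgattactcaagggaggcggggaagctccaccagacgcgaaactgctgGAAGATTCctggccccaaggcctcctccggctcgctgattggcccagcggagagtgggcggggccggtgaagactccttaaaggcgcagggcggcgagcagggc
The element was found in 10 of the 19 heat shock genes above the expression limit that had a promoter in the table, in 7.16% of all such genes and in 7.86% of all promoters. Dnajb1, the third gene past the limit, was not among the 10.

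Genes that fold and process proteins in the ER had mostly small ratios above 0, nearly all of them within the limits. Of the 40 listed ER chaperones and targets of Atf6 or Xbp1, 32 reached the limit, with a median of 0.09 against -0.04 for all genes. Of the 32, 1 was past 0.25 and none past -0.25, against 1% and 2.64% of all genes. Ratios were above 0 for 26 of the 32, or 29 with the alternative denominator, against 33% and 56.2% of all genes. With that denominator Ppib was also past 0.25, as were 2.43% of all genes. Fkbp11, a prolyl isomerase of secretory cells, stood at 131 CPM in WT (128 to 134) and 167 in HH (164 to 171), a ratio of 0.35 (0.31 to 0.40). Below it were Ppib, another prolyl isomerase, with 0.20, and Sdf2l1 and Creld2, both induced under ER stress, with 0.18 each. The chaperone Hspa5 (BiP) stood at 1761 CPM in WT and 1853 in HH, a ratio of 0.07 (0.06 to 0.09). The list did not move as a whole, since the lectin chaperone Canx had a ratio of -0.14 and the stress transcription factors Xbp1 and Atf6 had -0.10 and -0.09. Per cell, the summed list had a median of 9496 CPM in WT and 9880 in HH, and 56.1% of HH beta cells lay above the WT median. On HFD the list median was 0.23 against -0.05 for all genes, with Creld2 at 1.14, Fkbp11 at 0.96 and Sdf2l1 at 0.73. In alpha cells it was 0.02 against 0.005 and in delta cells -0.03 against -0.01.

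The Pdia6 promoter is shown as an example of the ER stress response element, CCAAT and CCACG with 9 bases of any kind between them, searched on both strands and marked in capitals. Pdia6, a disulfide isomerase, stood at 378 CPM in WT and 426 in HH, a ratio of 0.17. The sequence is the 250 bases before the RefSeq start on GRCm38.p6, plus strand, at chr12:17266339-17266588.
Pdia6: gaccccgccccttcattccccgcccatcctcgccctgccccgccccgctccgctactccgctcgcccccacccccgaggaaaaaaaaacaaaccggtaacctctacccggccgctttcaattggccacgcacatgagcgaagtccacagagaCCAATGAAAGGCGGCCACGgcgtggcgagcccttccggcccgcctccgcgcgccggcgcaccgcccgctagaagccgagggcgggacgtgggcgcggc
The element was found in 7 of the 26 listed ER genes with a promoter in the table and in 0.725% of the 1104 genes above the expression limit that had one, and 0.119% of all promoters held it. The 7 were Calr, Canx, Creld2, Dnajc3, Hsp90b1, Hspa5 and Pdia6. Their ratios ran from -0.14 for Canx to 0.18 for Creld2, and Fkbp11 was not among them.

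Components of the machinery that brings proteins into the ER and packs them into vesicles were collected after their values were seen, because Ssr4 and Sec11c lay among the highest genes. Among 39 such genes above the limit, 2 were past 0.25 and none past -0.25, against 1% and 2.64% of all genes. The 2 were Ssr4 and Sec11c, which prompted the set, so their count is no finding about it. Both also enter the other values of the set. With the alternative denominator 6 were past 0.25, against 2.43% of all genes. The median was 0.06 against -0.04 for all genes. Ratios were above 0 for 28 of the 39, or 34 with the alternative denominator, against 33% and 56.2% of all genes. Ssr4, a subunit of the complex that accompanies the translocon, stood at 579 CPM in WT (573 to 586) and 710.2 in HH (703 to 717), a ratio of 0.29 (0.27 to 0.32). Sec11c, a catalytic subunit of the signal peptidase, stood at 269.8 and 321 CPM, a ratio of 0.25 (0.22 to 0.28). Their partners Ssr2 (0.22) and Sec11a (0.21) were close behind, whereas Ssr1 (0.02) was not. The vesicle coat genes ran from -0.10 for Copb1 and -0.09 for Copa to 0.20 for Copz2 and 0.21 for Cope. On HFD the median of the 39 genes was 0.15, with Ssr4 at 0.75, Sec11c at 0.68 and Tmed7 at -0.21, and in alpha and delta cells it was 0.02 and 0.01.

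Targets of Atf4 and Ddit3, the other arm of the ER stress response, showed no shift towards HH. Of 29 listed genes, 12 reached the limit, with a median of -0.04. None was past 0.25 and 2 were past -0.25, against 1% and 2.64% of all genes. Ratios were below 0 for 10 of the 12, or 5 with the alternative denominator, against 67% and 43.8% of all genes. Cebpb (-0.32) and Cebpg (-0.27) were the lowest, and with the alternative denominator Cebpg had -0.21 and was not past the limit. Atf4 itself stood at 238 and 208 CPM, a ratio of -0.19, and Ddit3 at 260.1 and 232, a ratio of -0.16, while the aminoacyl-tRNA synthetase Gars was the highest at 0.09.

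**Figure D3:**
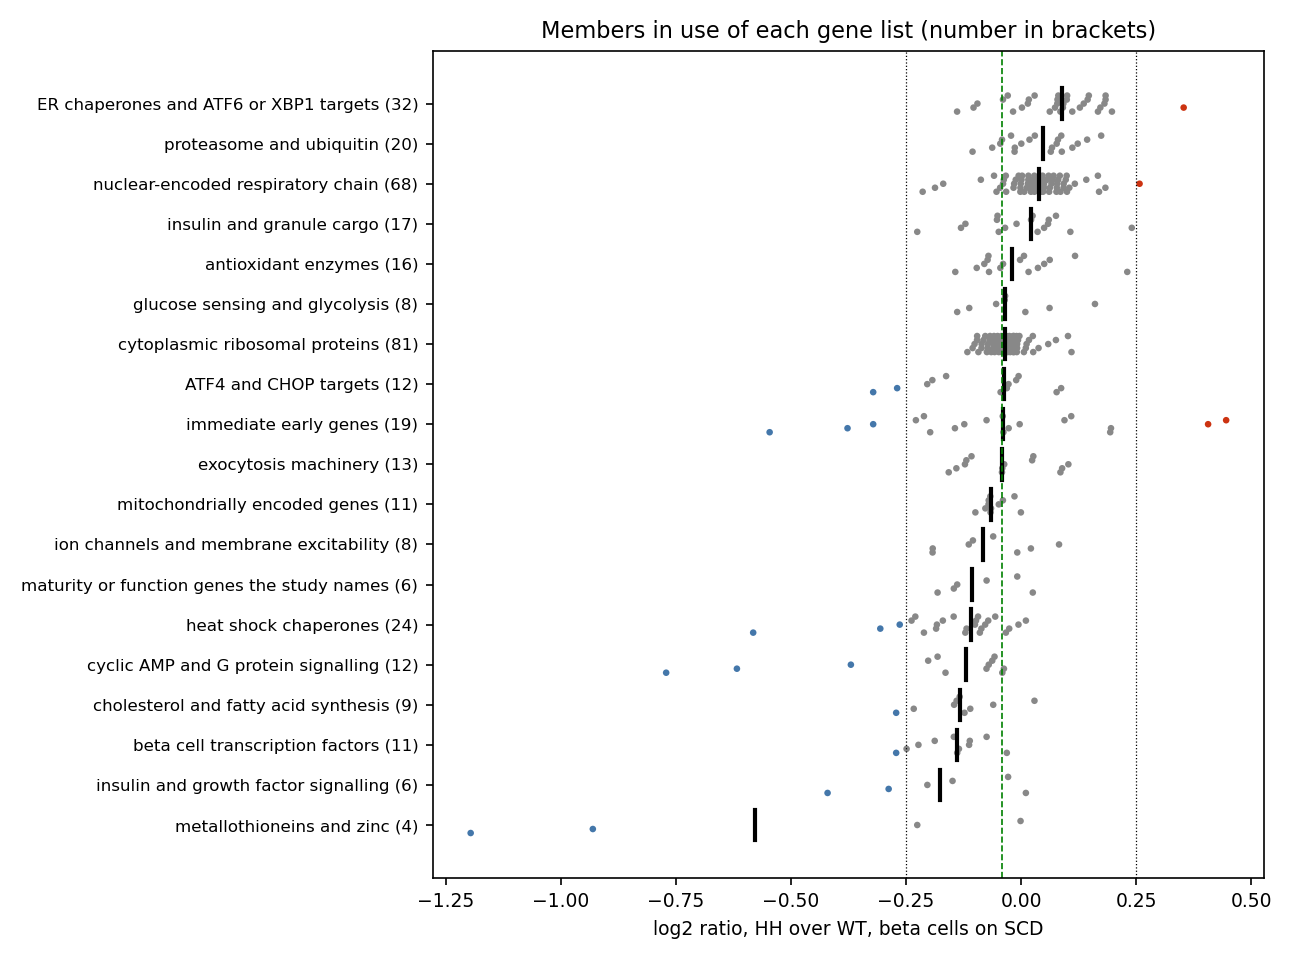
Each point is a gene above the expression limit, placed by its log2 ratio of HH over WT (x axis) beside the name of its list, with the number of genes in brackets and a bar at the list's median, for lists with 4 or more such genes. The dashed line is the median of all 1400 genes (-0.04) and dotted lines mark 0.25 and -0.25. ER chaperones have the highest median (0.09) and metallothionein and zinc genes the lowest (-0.58).

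Insulin and the cargo of its granule were nearly level. Ins1 stood at 159959 CPM in WT and 168571 in HH and Ins2 at 384351 and 390144, ratios of 0.08 and 0.02, and both chose the cells. Of the 21 listed cargo genes, 17 reached the limit and none was past either limit. With the alternative denominator Nucb2 had 0.30 and was past 0.25, as were 2.43% of all genes. Iapp, which encodes amylin, had a ratio of 0.06. Nucb2, a calcium-binding secretory protein, was the highest at 151 and 179 CPM with 0.24, and Slc30a8 the lowest. Chga, a granin of the granule matrix, stood at 6537 and 5971 CPM (-0.13) and Scg2 at 2104 and 2266 CPM (0.11), so that related granins lay on opposite sides of 0.

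Beta cell transcription factors had small ratios below 0, nearly all of them within the limits. Of 23 listed genes, 11 reached the limit and all 11 had ratios below 0, against 67% of all genes. None was past 0.25 and 1 was past -0.25, against 1% and 2.64% of all genes, and the median was -0.14. Mlxipl, the glucose-responsive factor ChREBP, stood at 68.6 and 56.8 CPM, a ratio of -0.27 (-0.34 to -0.20). Neurod1, at 165 and 139 CPM, fell short of the limit before rounding with -0.25, and Pdx1, at 81.5 and 69.8 CPM, had -0.22. Isl1 was the highest with -0.03. With the alternative denominator of CPM, 10 of the 11 were below 0, against 43.8% of all genes. With it no member was past the limit and the median was -0.08. On HFD the median was -0.30 and in alpha and delta cells of the SCD libraries, where several of these genes are low, -0.15 and -0.04.

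The study itself names 8 genes of beta cell maturity or function, of which 6 reached the limit. They were chosen on these mice and are not independent evidence. None was past either limit, and the ratios ran from -0.18 for Glp1r to 0.03 for Ucn3, a peptide of mature beta cells at 265 and 270.2 CPM. Mafa stood at 396 and 358 CPM (-0.15), the glucose transporter Slc2a2 at 297 and 269 (-0.14), Nkx6-1 at 218 and 207 (-0.08) and the cation channel Trpm5 at 92.2 and 91.7 (-0.01). Below the limit, Cacna1d stood at 53.2 and 46.0 CPM (-0.21) and Itpr1 at 13.2 and 12.4 CPM (-0.10). Of the 4 named dedifferentiation or alpha cell genes, Ttr (transthyretin) reached the limit at 1285 and 1337 CPM with 0.06. Aldh1a3, a marker of dedifferentiated beta cells, counted 80 UMIs in WT and 104 in HH (0.44, interval 0.01 to 0.88), in 2.33% and 3.57% of the cells, and 1% of the cells held 66.2% and 51.0% of these UMIs. On HFD it stood at 1.83 and 10.8 CPM. Gc (0.14) and Serpina7 (-0.15) stood at 28.2 and 31.0 CPM and at 3.37 and 3.04 CPM.

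Genes of energy metabolism and protein synthesis had few members past 0.25 or -0.25, limits passed by 1% and 2.64% of all genes. The lists of the respiratory chain and the proteasome stood above the median of all genes and the ribosomal proteins close to it. Of 81 listed nuclear genes of the respiratory chain, 68 reached the limit, with a median of 0.04. Ratios were above 0 for 50 of the 68, or 63 with the alternative denominator, against 33% and 56.2% of all genes. Atp5g1, a membrane subunit of ATP synthase, was the sole member past 0.25, at 218 CPM in WT and 261 in HH with 0.26, and Cox6a2, a subunit of cytochrome oxidase, was the lowest with -0.21. All 11 mitochondrially encoded genes above the limit had ratios below 0, or 7 with the alternative denominator, against 67% and 43.8% of all genes. Their median was -0.07, or -0.01 with that denominator and -0.13 under a looser filter on cells. Mitochondrial transcripts were held under 10% by the rule that kept the cells. Of 81 ribosomal protein genes above the limit 70 had ratios below 0, or 23 with the alternative denominator, against 67% and 43.8% of all genes, and their median of -0.04, or 0.02 with that denominator, was close to that of all genes. Proteasome genes had a median of 0.05 over 20 genes, antioxidant enzymes one of -0.02 over 16, glucose sensing and glycolysis genes one of -0.04 over 8, ion channels one of -0.08 over 8 and exocytosis genes one of -0.04 over 13, and none of these lists had a member past either limit with the scaling used throughout. Txnip, which binds thioredoxin and follows glucose, was the highest antioxidant-list gene at 174 and 205 CPM with 0.23, or 0.29 with the alternative denominator, which is past the limit.

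Smaller lists held few genes above the limit, and are set beside the median of -0.04 and the 2.64% past -0.25 over all genes. Cholesterol and fatty acid synthesis genes had a median of -0.13 over 9, with Mlxipl past the limit. Insulin and growth factor signalling genes had a median of -0.18 over 6, with Igfbp7 (-0.42) and the angiogenic factor Vegfa (-0.29, at 149 and 122 CPM) past the limit. With the alternative denominator Vegfa had -0.23 and was not past it, and Igfbp7 had -0.27 in beta cells without endothelial or stromal UMIs, whose markers are given below. Fatty acid oxidation (3 genes, lowest Hadh with -0.22), cell cycle (3 genes, lowest the cyclin Ccnd2 with -0.15), MHC class I and interferon genes (2 genes, lowest H2-K1 with -0.09) and the circadian clock (2 genes, lowest Nfil3 with -0.20) had none. No disallowed gene, the class that beta cells keep silent, reached the limit.

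The remaining genes among the 15 highest and 15 lowest had varied functions. On the lower side were Mpp7, a scaffold of cell junctions, at 67.5 CPM in WT and 45.7 in HH (-0.56), and Defb1, a secreted defensin, at 113 and 79.4 CPM (-0.51). Sh3pxd2a, an adaptor of actin-rich protrusions, stood at 67.4 and 48.4 CPM (-0.48), Nfkbia, the inhibitor of NF-kappaB, at 163 and 119 CPM (-0.45), and the splicing factor Mbnl1 at 68.6 and 50.8 CPM (-0.44). Lmna, which encodes the nuclear lamins A and C, stood at 147 and 109 CPM (-0.42) and Dennd4c, an activator of Rab proteins, at 58.2 and 44.5 CPM (-0.39). Nfkbia, Hspa1b and Nr4a1 were lower in HH among cells above the median UMIs (-0.34, -0.53 and -0.45) and among those at or under it (-0.59, -0.65 and -0.70). On the higher side, Dapl1 stood at 64.5 CPM in WT (62.4 to 66.6) and 87.2 in HH (84.7 to 89.8), a ratio of 0.44 (0.37 to 0.50), and in alpha cells it stood at 48.4 and 67.7 CPM, a ratio of 0.48 (0.25 to 0.72). Fh1, the fumarate hydratase of the citric acid cycle, stood at 64.1 and 79.7 CPM (0.31), Pak3, a kinase downstream of Rac and Cdc42, at 47.1 and 57.7 (0.29), and Gtf2b, the general transcription factor TFIIB, at 102 and 125 (0.29). The G protein subunit Gng12 stood at 383 and 459.6 CPM (0.26), the tubulin gene Tuba1a at 283 and 339 (0.26) and Zc3h3, a zinc finger protein of RNA export, at 52.9 and 62.5 (0.24). Among cells at or under the median UMIs, the ratios of Pak3 (0.18), Gtf2b (0.09) and Tuba1a (0.12) were under the limit.

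**Figure D4:**
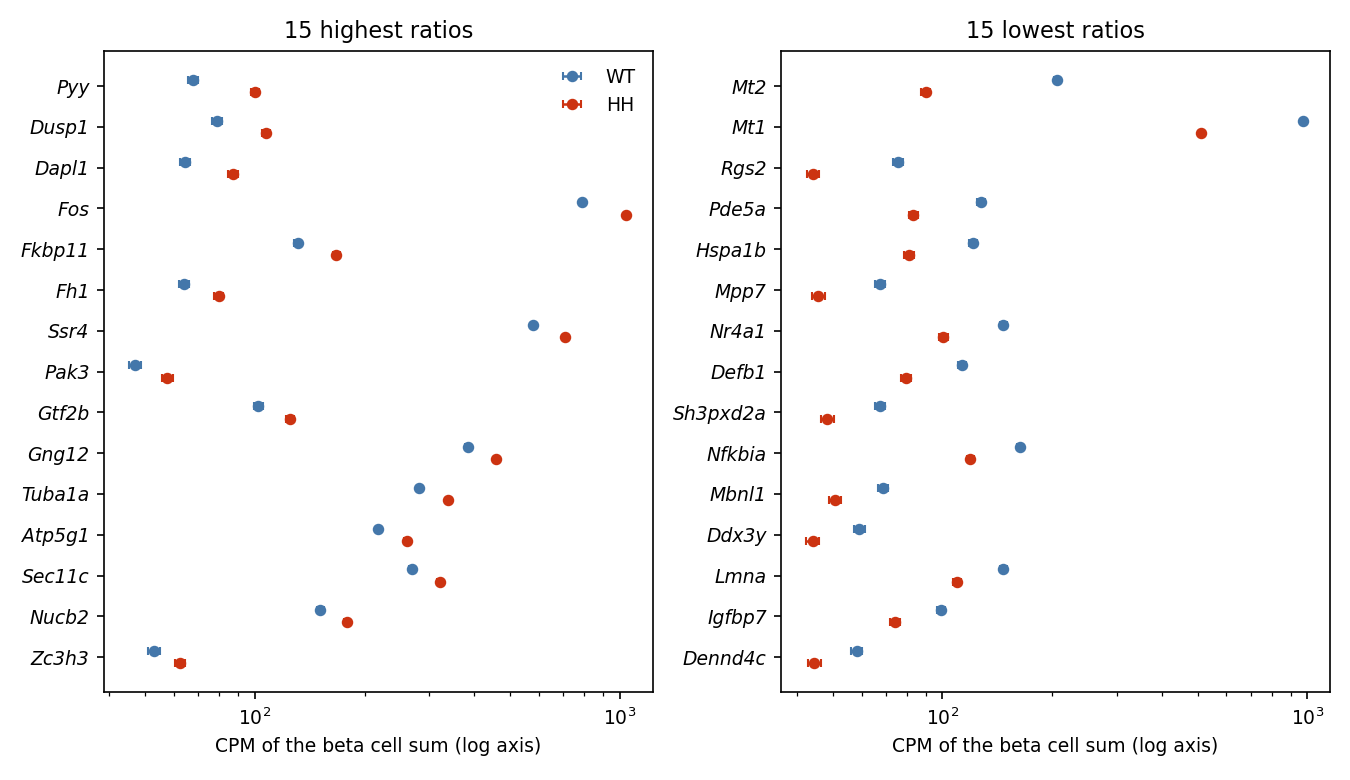
Points give the level of each gene in the beta cell sum of WT and HH (CPM, log axis) with exact Poisson intervals, for the 15 highest ratios at the left and the 15 lowest at the right. The intervals of the 2 libraries do not overlap for any of the 30 genes, a condition by which they were chosen.

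Hormones of other islet cells and markers of other cell types were measured in the beta cell sums as well. Ppy stood at 136 CPM in WT and 197 in HH (0.53), Gcg at 322 and 383 (0.25) and Sst at 56.0 and 58.6 (0.07), all held down by the rule that chose the cells. Pyy, which encodes the hormone peptide YY, stood at 67.8 CPM in WT (65.7 to 70.0) and 100.2 in HH (97.5 to 103), a ratio of 0.56, and 1% of the cells held 47.2% of its UMIs in WT and 46.2% in HH. Its ratio was 0.14 under a looser filter on cells, 0.32 when each of the other hormones was held under 0.2%, and 0.03 in cells without endothelial or stromal UMIs. In alpha cells Pyy and Ppy had ratios of 0.59 and 0.55, and in delta cells of 0.05 and 0.03. The 3 PP markers other than Ppy are Pyy itself, Etv1 and Aqp3 and summed to 80.7 and 118 CPM, with Aqp3 at 0 in HH. The 5 delta markers other than Sst summed to 55.2 and 69.0 CPM, of which Pdyn gave 40.5 and 52.0 and Rbp4 14.2 and 16.6. Of these 5, Hhex and Ghsr were lower in HH, with Ghsr at 0 there. The part of these transcripts in the Pyy ratio was not tested.

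Igfbp7, a secreted protein abundant in endothelial cells, stood at 99.0 CPM in WT (96.4 to 102) and 74.0 in HH (71.7 to 76.3), a ratio of -0.42. The 9 endothelial markers summed to 47.0 CPM in WT and 26.1 in HH, with Cldn5 at 0 in WT, and 8 of the 9 were lower in HH. The 9 stromal markers summed to 24.0 and 9.31 CPM, and 7 of the 9 were lower in HH. In the 1694 WT and 1677 HH beta cells with no UMI of these 18 markers the ratio of Igfbp7 was -0.27. Macrophage markers summed to 51.6 and 66.2 CPM, of which C1qa alone gave 40.9 and 52.8 while C1qb was level at 1.12 and 1.13. Lymphocyte markers summed to 16.2 and 8.54 CPM, of which Cd79a gave 15.7 and 7.12, with 5 of the 9 at 0 in WT, 2 at 0 in HH and 6 higher in HH. Acinar markers summed to 0.597 and 0.888 CPM with 6 of 15 at 0 in WT and 5 in HH, and red blood cell markers to 0.525 and 1.34. Ductal markers, which include keratins that beta cells express, summed to 729.9 and 710.2 CPM, of which Krt8 gave 400 and 387. Of the 8 ductal markers 5 were lower in HH and 2 higher. Among the lower were Krt19 with 104 UMIs in WT and 10 in HH, and Spp1 with 386 and 143. Without cells that held endothelial or stromal UMIs, 13 genes were past 0.25 and 38 past -0.25 over 1399 genes, and 12 and 35 of them were the genes counted above.

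The 30 highest and lowest genes were also read in other cells of the same libraries and in beta cells on HFD. Over the 1400 genes, the SCD ratios in beta cells had a Pearson r of 0.51 and a Spearman rho of 0.54 with the HFD ratios in beta cells, across genes that are not independent, in libraries that share no sample but were made from mice of the same genotypes. Of the 51 genes past either limit on SCD, 42 (82.4%) had the same sign on HFD, against 961 (68.6%) of all 1400. In alpha cells on SCD 38 of the 51 (74.5%) had the same sign, against 55.9% of all 1400, with a Pearson r of 0.21. In delta cells 34 (66.7%) had it, against 57.4% of all 1400, with a Pearson r of 0.18. Alpha and delta cells share their libraries with the beta cells, and the part of RNA shared between cells of a library was not tested. Over the same 1400 genes the HFD pair spread more widely, with 90% of absolute ratios at 0.417 or less and 161 and 261 genes past 0.25 and -0.25. Diet and age cannot be told apart between the pairs, and no test was made of how the pairs differ.

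**Figure D5:**
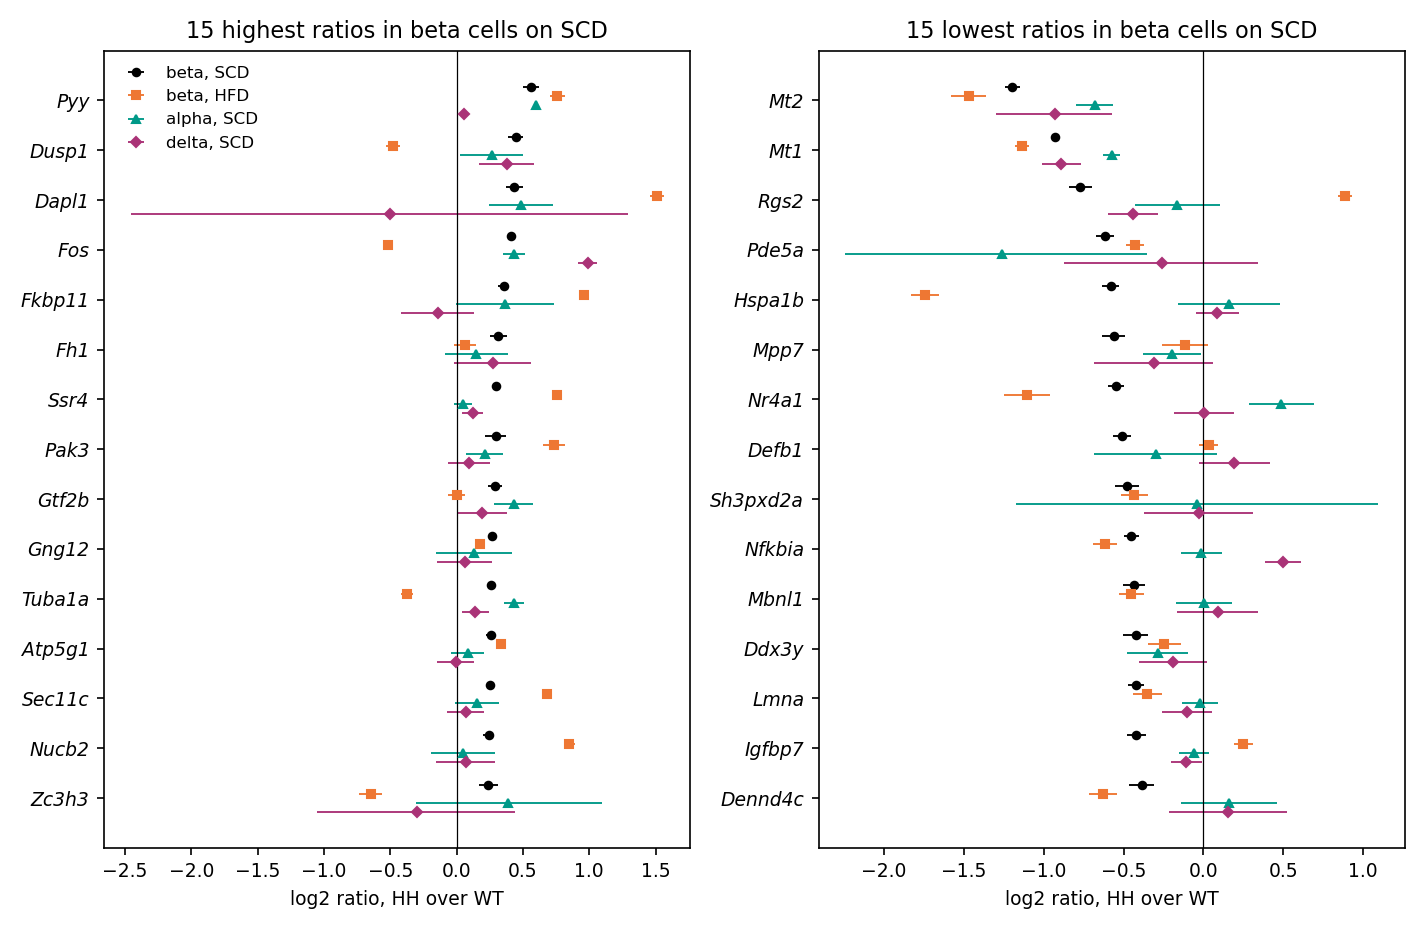
Points give the log2 ratio of HH over WT with its counting interval in beta cells on SCD, beta cells on HFD, alpha cells on SCD and delta cells on SCD, for the 15 highest ratios at the left and the 15 lowest at the right. Mt1 and Mt2 lie below 0 in all 4 sets of cells, Dapl1 (1.51) and Fkbp11 (0.96) lie further to the right on HFD, and Rgs2, Fos, Dusp1, Tuba1a, Zc3h3 and Igfbp7 lie clear of 0 on opposite sides between the diets, while Defb1 (0.03) and Gtf2b (-0.00) lie at 0 on HFD.

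Ratios on HFD were larger in the same direction for several genes. Dapl1 stood at 112 CPM in WT and 320 in HH on HFD, a ratio of 1.51, Pak3 had 0.73, Nucb2 0.85 and Ssr4 0.75. Gtf2b was level on HFD (-0.00) and so were Defb1 (0.03) and Fh1 (0.06). In alpha cells Fos (0.43), Gtf2b (0.43) and Tuba1a (0.43) were higher in HH, as in beta cells, while Nr4a1 was higher there with 0.49. In delta cells Fos had a ratio of 0.99, from 648 to 1286 CPM, and Nfkbia one of 0.50, opposite in sign to its ratio in beta cells.

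The gene that carries the knock-in could not be measured. Pax4 had 0 UMIs in the beta cell sums and in all barcodes of all 4 libraries. On SCD the limit of 3 counts corresponds to 0.0543 CPM in WT beta cells and 0.0567 in HH. Whether these libraries can detect the transcript was not tested, so this limit covers counting only and is no bound on expression. The study measured low Pax4 mRNA in adult islets by quantitative RT-PCR, at comparable levels in both genotypes. Within 5 Mb of Pax4, which lies on chromosome 6 from 28442334 to 28449353 (GRCm38, minus strand), 2 of 96 annotated genes reached the expression limit, with ratios of -0.01 and -0.00. Over the 62 genes above the limit on chromosome 6 the median was -0.04. Of these, 1 was past 0.25 and none past -0.25, against 1% and 2.64% of all genes. Xist, which marks female cells, counted 2 UMIs in WT and 5 in HH beta cells. Ddx3y, a gene of the Y chromosome, was present in both at 59.2 and 44.1 CPM, a ratio of -0.42, with -0.29 in alpha cells and -0.24 on HFD.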

How the data were processed

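The deposited matrices hold UMI counts for each gene and barcode as whole numbers, without normalisation. The submitters' processing notes name Cell Ranger 6.0 and the build mm10. The ambient RNA and doublet corrections of the study's methods came after these counts and are not in them. All 4 libraries were read, and no column was left out. Cells were chosen by the stated rules, UMIs summed per library and class and scaled to CPM. A count of 0 was given as an upper limit of 3 counts. No p-value, standard error or test between genotypes was computed. Alpha and delta cells had Gcg or Sst at 1% or more of UMIs and above insulin and the other hormones, and endothelial cells had UMIs of at least 3 endothelial markers and were under the hormone limits. Shares of cells with a UMI came from cells thinned to 3000 UMIs (seed 1). Named genes were the 15 highest and 15 lowest ratios among genes whose Poisson intervals did not overlap, without the hormones that chose the cells, list members past 0.25 or else the highest and lowest, the genes the study names, Pax4, Xist and Ddx3y. Further members are named as examples. The members and lists were chosen with earlier results of these data known. Gene positions came from GENCODE M21 of GRCm38, which may differ from the authors' annotation, and promoters from RefSeq, matched by symbol for 1104 of the 1400 genes. The steps were tested on simulated data with known ratios. Doublets were called with Scrublet in scanpy 1.11.5 for an alternative, at an expected 0.8% per 1000 barcodes. Python 3.11.15, numpy 2.4.6, scipy 1.17.1, pandas 2.3.3 and matplotlib 3.10.9 were used.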

Additional observations from a re-analysis of the deposited data

Results flagged for a closer look

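In 4 of the 30 highest and lowest genes the ratio of HH over WT in beta cells was past 0.25 in opposite directions on SCD and on HFD. Rgs2 had -0.77 on SCD and 0.89 on HFD, Fos 0.41 and -0.52, Dusp1 0.45 and -0.48, and Tuba1a 0.26 and -0.38. Each genotype and diet had 1 library, so no test of the diets against each other was made. Fos and Dusp1 belong to the immediate early genes, and on HFD the median of that list was -0.59 over the same 19 genes, against -0.05 for all.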

How the results depend on the processing

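Of the 28 genes named as highest or lowest and past 0.25 in size, all 28 kept their sign under each of 13 alternatives and 21 stayed past 0.25 under all of them. The exceptions were Pyy, Pak3, Gtf2b, Gng12, Tuba1a, Atp5g1 and Sec11c. The counts of genes past 0.25 and -0.25, 14 and 37, moved with the scaling and the limits. They were 34 and 21 when Ins1, Ins2, Iapp and the mitochondrial transcripts were taken out of the denominator of CPM, which raised all ratios by 0.0558, and 25 and 23 with median-of-ratios scaling. Beta cells at or under the median UMIs gave 15 and 71, those above it 22 and 37, and the cause was not tested. A minimum of 20 CPM gave 25 and 168 of 3650 genes, 100 CPM gave 9 and 15 of 589, and a limit of 0.5 gave 2 and 8. A looser filter, no bounds on genes per cell, doublets removed, at least 10% insulin, other hormones under 0.2%, markers of other cell types under 0.1%, equal weight per cell and cells without endothelial or stromal UMIs, the last chosen after seeing the data, left both counts within 1.5 times. Scrublet called 50 WT and 8 HH barcodes, of which 8 and 1 were beta cells, so that alternative removed few cells. Pyy ran from 0.03 to 0.83 over the alternatives, Igfbp7 from -0.65 to -0.27, Gtf2b from 0.09 to 0.39 and Mt2 from -1.35 to -1.11. Thinning to 10000 UMIs changed no direction of the shares of cells with a UMI of the genes measured but moved many differences by over 1.5 times, for Mt1 from -19.1 to -7.97 percentage points and for Rgs2 from -4.76 to -11.6. No paired analysis was possible because each group had 1 library. Depth limits statements to genes above the expression limit, and no replicate limits the rest.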

Other observations

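The ratios in beta cells were lower for genes with a longer span on the genome, a comparison chosen after the values were seen. In 4 equal sets of 350 genes from the shortest to the longest span, the median log2 ratio on SCD was -0.01 for spans up to 5.55 kb, -0.03 up to 15.4 kb, -0.05 up to 40.7 kb and -0.09 above, and 145, 143, 108 and 66 genes had ratios above 0. On HFD the medians were 0.06, 0.02, -0.08 and -0.15 in the same order. In alpha cells of the SCD libraries the medians of the 4 sets lay between 0.00 and 0.01, and in delta cells between -0.03 and 0.00. The nuclear RNAs Malat1 and Neat1 had ratios of -0.03 and -0.04 in beta cells, close to the median of all genes. Among cytoskeletal genes outside the lists, Actg1 stood at 911 CPM in WT and 746 in HH, a ratio of -0.29, Actb at 748 and 698, a ratio of -0.10, and Tuba1a had a ratio of 0.26. Between 40 and 50 CPM, below the expression limit, the genes with the lowest ratios were Cd81 (-0.60), AY036118 (-0.59) and Gem (-0.43), and those with the highest C1qa, a macrophage gene (0.37), and Pdyn, a delta cell marker (0.36).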
